A study of Rattus norvegicus with 10 samples.

Results

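The amino acid transporter genes Slc3a2, Slc7a1, Slc7a3, Slc7a5, Slc7a11, Slc6a9, Slc38a2, Slc1a4, Slc1a5 and Slc43a1 were followed in FoxE1-silenced rat thyroid cells. These 10 plasma membrane carriers and subunits of carriers were taken by gene name, with every probe assigned to their transcripts. All 10 had a probe, 13 probes of the 30367 on the array, among 15155 genes with a probe. Of the 10, 9 were bright enough to be tested in each comparison, of 9716 genes tested against siScramble and 9881 against wt. PCCl3 cells, a rat thyroid follicular line grown with TSH, insulin and other hormones in donor calf serum, were transfected with 25 nM of a pool of siRNAs against FoxE1 (siFoxE1) or with 25 nM of a non-targeting pool (siScramble), both with DharmaFECT 1, or left untreated (wt). Total RNA was taken after 48 h from 4 cultures of each condition and hybridised to 2-colour Agilent arrays. The siFoxE1 cells were compared with siScramble and with wt cells, each on 4 arrays of single cultures and on 1 array of the pooled RNA of those cultures with the dyes swapped, so n is 4 cultures throughout. Both comparisons use the same siFoxE1 extracts. The wt cells had no transfection reagent, so siFoxE1 vs wt holds transfection and silencing together, and all cells are 1 line.

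Amino acid transporters carry amino acids across the plasma membrane, and thyroid cells need them to build thyroglobulin, a very large protein made in great amounts. The glycoprotein encoded by Slc3a2 (4F2hc, CD98) has no transport activity of its own and brings light chains to the membrane. With the Slc7a5 product (LAT1) it exchanges large neutral amino acids such as leucine and tyrosine, and with the Slc7a11 product (xCT) it takes up cystine in exchange for glutamate. Slc7a1 and Slc7a3 encode carriers of arginine and lysine, Slc6a9 a glycine carrier, Slc1a4 and Slc1a5 exchangers of small neutral amino acids and glutamine, Slc38a2 a sodium-coupled neutral carrier and Slc43a1 a facilitative carrier of large neutral amino acids. Several of them are known targets of ATF4, the transcription factor of the amino acid response, which binds elements that hold TGATGNAA, where N is any base. FoxE1 is a forkhead factor, and forkhead factors bind elements around AAACA.

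Promoter windows of RefSeq (rat genome build GRCr8), 250 bases before to 50 bases after the start of each gene, were found for 8 of the 10 members, and Slc7a3 and Slc1a5 had none. TGATGNAA, searched on both strands, was in the windows of 2 members, Slc7a1 and Slc1a4, and in 3.98% of all 33469 promoter windows. AAACA, also on both strands, was in the windows of 4 members, Slc7a5, Slc7a11, Slc6a9 and Slc43a1, and in 51.9% of all windows. The pair of TTGG followed after 5 to 30 bases by AAACA was in 0 of the 8 members and in 7.38% of all windows. A match is only a description of the letters in the window. The 250 bases before the start are printed 5′ to 3′ on the strand of the gene for both members with TGATGNAA and for Slc7a11, the member whose ratios varied most between cultures. Capitals mark the match to TGATGNAA in Slc7a1 and, read on the opposite strand, in Slc1a4, and the match to AAACA in Slc7a11.
Slc7a1 (chr12:11664238-11664487, plus strand): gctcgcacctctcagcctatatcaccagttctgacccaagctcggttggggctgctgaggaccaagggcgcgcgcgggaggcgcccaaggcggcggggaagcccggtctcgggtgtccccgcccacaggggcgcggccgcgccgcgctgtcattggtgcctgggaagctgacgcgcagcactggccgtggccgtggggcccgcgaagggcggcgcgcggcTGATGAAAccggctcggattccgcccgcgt
Slc1a4 (chr14:98761563-98761812, minus strand): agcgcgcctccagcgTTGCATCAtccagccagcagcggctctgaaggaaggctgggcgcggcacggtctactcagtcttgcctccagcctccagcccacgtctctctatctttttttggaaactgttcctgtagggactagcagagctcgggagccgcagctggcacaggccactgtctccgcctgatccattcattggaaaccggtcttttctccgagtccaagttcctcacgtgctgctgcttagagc
Slc7a11 (chr2:136668265-136668514, minus strand): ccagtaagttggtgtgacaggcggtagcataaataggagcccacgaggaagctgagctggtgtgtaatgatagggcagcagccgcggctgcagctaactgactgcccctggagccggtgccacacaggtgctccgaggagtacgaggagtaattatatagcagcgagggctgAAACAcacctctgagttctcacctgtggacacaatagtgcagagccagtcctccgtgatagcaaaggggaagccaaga

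FoxE1 mRNA was lower in the siFoxE1 channel on all 10 arrays. Foxe1 fell 1.73-fold against siScramble (log2 fold change -0.79, standard error 0.0856, limma adjusted p = 0.0225, n = 4 cultures) and 1.81-fold against wt (log2 fold change -0.86, standard error 0.0772, adjusted p = 0.0326). A value fitted with the dye term lies midway between the mean of the 4 single cultures and the pooled array, so 1 array weighs as much as 4. For Foxe1 the pooled array was lower than every culture, at -1.03 against siScramble and -1.21 against wt, and the cultures alone gave -0.56 (adjusted p = 0.0269) and -0.51 (adjusted p = 0.0394), with no dye term possible. These signs follow the labels, which put siFoxE1 in Cy5 on the arrays of single cultures, whereas the colour key of the study's design drawing shows the dyes the other way round. Every thyroid follicular marker examined, 10 of 10, was well above background in all 4 wt cultures. Of markers of other cells this held for 1 of 4 C cell, 3 of 7 fibroblast, 1 of 5 endothelial and 2 of 5 leukocyte genes with a probe. Duox2 was at a log2 fold change of 0.98 and Duoxa2 at 0.52 (0.33 as the mean of the cultures) against siScramble, without passing the test. The leukocyte marker Cd68 was at 0.0993, -0.0048, 0.0079 and -0.0004 in replicates 1 to 4 against siScramble and at -1.34 on the pooled array. Its call (log2 fold change -0.66, adjusted p = 0.0147) thus rests on 1 array and was lost with the replicate block (adjusted p = 0.301). The other tested markers of these cells, Calcb, Col1a1, Col1a2, Pdgfra, Cdh5 and Csf1r, lay between -0.03 and 0.14 against siScramble. Between 56.8 and 68.2% of spots per array and dye were well above background and none was saturated. In bulk RNA, fewer cells of a type and less RNA per cell cannot be told apart.

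Most members were slightly lower in FoxE1-silenced cells, and none passed the test over all genes. Against siScramble, 8 of the 9 tested members had a log2 fold change below 0, with a median of -0.20 where all tested genes had 0.0011 and 49.6% of them were below 0. Against wt, 8 of 9 were below 0, with a median of -0.35 where all genes had -0.0019 and 50.6% were below 0. At an adjusted p under 0.05, limma called 0 of the 9 members against siScramble, where it called 15 of 9716 genes (0.154%), and 0 of 9 against wt, where it called 3 of 9881 genes (0.0304%). At an unadjusted p under 0.05, 4 members were lower against siScramble (Slc3a2, Slc7a1, Slc7a5 and Slc6a9), where 7.49% of all genes were, and 4 against wt (Slc7a1, Slc6a9, Slc38a2 and Slc1a4), where 10.2% were. No member was higher at that level in either comparison, where 8.67% of genes were against siScramble and 10.6% against wt. The ratio was below 0 on all 5 arrays for 5 members against siScramble, where 11% of genes showed this, and for 5 members against wt, where 14.1% did. These percentages cover all genes, and the counts of members are too small for a statement particular to the family. The members were also chosen with earlier results of these data known, so their lean is not independent evidence.

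When all 10 arrays were fitted together with a shared dye term, 3 members fell against wt, with or without the replicate number as a block. With the block they were Slc7a1 (log2 fold change -0.54, adjusted p = 0.0107), Slc6a9 (-0.58, adjusted p = 0.0214) and Slc1a4 (-0.36, adjusted p = 0.0327), carriers of cationic amino acids, of glycine and of small neutral amino acids. In that fit 478 of 9881 genes were called lower (4.84%) and 1045 in either direction (10.6%). Without the block the same 3 members were called, among 1145 genes (11.6%). That fit counts both arrays of a siFoxE1 extract as independent, so it cannot show whether the calls hold. The wt comparison fitted alone with its dye term called none of them. With no dye term it called these 3 and Slc38a2, among 597 genes (6.04%). On the 4 single cultures alone it called Slc7a1, beside Slc7a5, but not Slc6a9 or Slc1a4, among 147 genes (1.49%). With a dye term for each comparison in place of a shared one, a setting chosen after the data were seen, 436 genes were called against wt, and of the members Slc7a1 and Slc6a9. Against siScramble the block called 45 genes (0.463%) and 0 members.

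**Figure D1:**
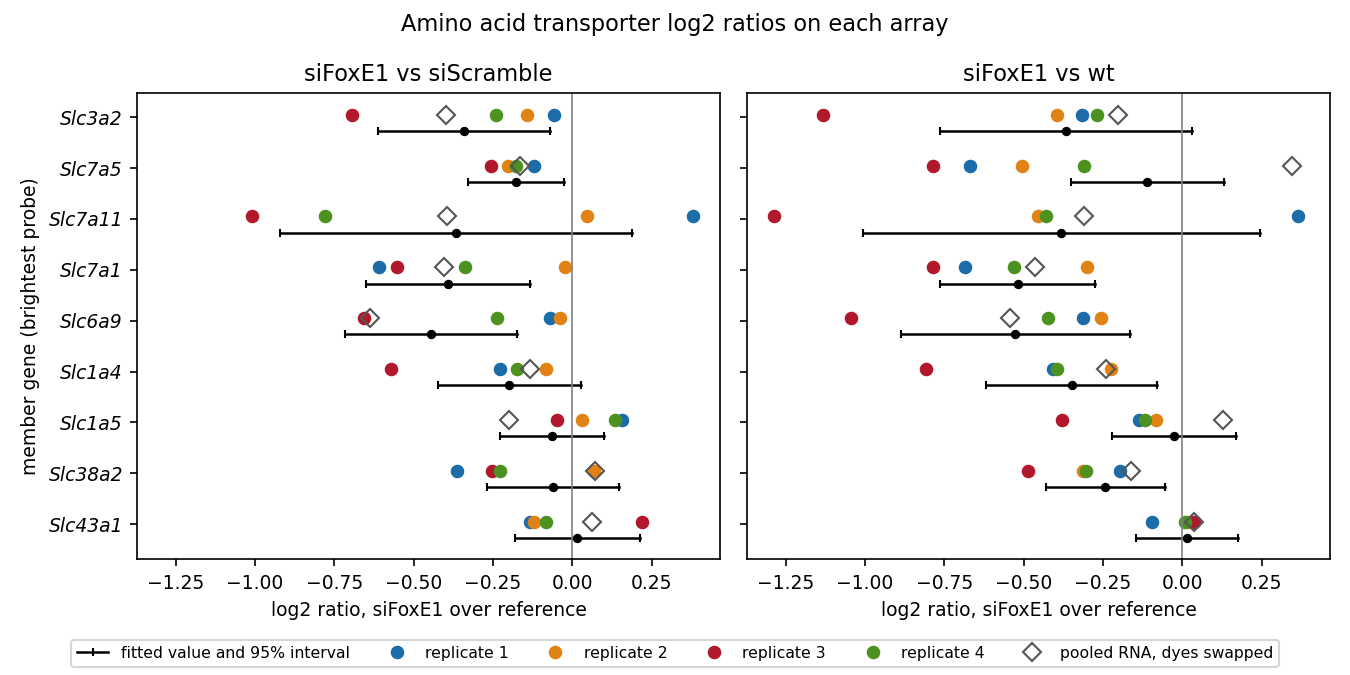
Log2 ratio of siFoxE1 over siScramble (left) or wt (right) for the brightest probe of the 9 tested members. Filled circles are the arrays of single cultures, open diamonds the pooled array with swapped dyes, and the black point with its bar the value fitted by limma with its 95% interval. Replicate 3 lies farthest to the left for most members, Slc7a11 spreads most, and the pooled array of Slc7a5 against wt lies at 0.35 while its 4 cultures lie between -0.79 and -0.31.

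The common heavy chain gene Slc3a2 was lower on every array of both comparisons. Its log2 ratio against siScramble was -0.06, -0.14, -0.69 and -0.24 in replicates 1 to 4 and -0.40 on the pooled array. Against wt it was -0.32, -0.39, -1.13 and -0.27, with -0.20 on the pooled array. Replicate 3 stood apart from the other three in both comparisons. The fitted log2 fold change was -0.34 against siScramble (95% interval -0.61 to -0.07, adjusted p = 0.296) and -0.37 against wt (-0.76 to 0.03, adjusted p = 0.311).

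Slc7a5, the LAT1 light chain for large neutral amino acids, gave close values against siScramble and conflicting ones against wt. The ratio to siScramble was -0.12, -0.20, -0.26 and -0.18 in replicates 1 to 4 and -0.17 on the pooled array, a fitted log2 fold change of -0.18 (95% interval -0.33 to -0.03, adjusted p = 0.31). In the wt comparison the 4 cultures gave -0.67, -0.50, -0.79 and -0.31, and the pooled array of the same RNAs gave 0.35. The pooled array thus had the opposite sign to all 4 cultures it was made from, as it had for 13.5% of all genes. It lay 0.91 above the mean of the cultures, and 0.223% of genes (22 of 9878) had a gap at least as wide. Both spots of the probe gave the same picture in the scanner's own ratios, 0.38 and 0.35 on the pooled array, and neither was marked as an outlier. With the dye term the fitted value was -0.11 (95% interval -0.35 to 0.13, adjusted p = 0.589), while the 4 single cultures alone gave -0.57 with an adjusted p = 0.0487, in a fit that called 1.49% of all genes, so the call for Slc7a5 rests on whether the pooled array is used.

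Slc7a11, the xCT light chain that imports cystine, varied more between cultures than any other member. Against siScramble its log2 ratio was 0.38, 0.05, -1.01 and -0.78 in replicates 1 to 4 and -0.39 on the pooled array, so 2 cultures were above 0 and 2 clearly below. Against wt it was 0.37, -0.45, -1.29 and -0.43, with -0.31 on the pooled array. The mean over the 4 cultures was -0.34 ± 0.66 (SD, n = 4) and -0.45 ± 0.68 (SD, n = 4). The fitted log2 fold changes of -0.37 (95% interval -0.92 to 0.19, adjusted p = 0.571) and -0.38 (-1.01 to 0.25, adjusted p = 0.47) had intervals that held values on both sides of 0. A second, dimmer probe, A_64_P041166, was below 0 on all 5 arrays of each comparison, from -0.02 in replicate 1 to -0.56 in replicate 3 against siScramble and from -0.05 in replicate 2 to -0.60 in replicate 3 against wt. It was well above background in the siFoxE1 channel on 2 of 5 arrays. The brighter probe, A_42_P576446, was above 0 in replicate 1 of both comparisons and the dimmer one was not.

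Slc7a1, which encodes the arginine and lysine carrier CAT1, was lower on every array of both comparisons at its brightest probe. The ratio to siScramble was -0.61, -0.02, -0.55 and -0.34 in replicates 1 to 4 and -0.40 on the pooled array. The ratio to wt was -0.68, -0.30, -0.79 and -0.53, with -0.46 on the pooled array. Replicate 2 was nearest to 0 in both. The fitted log2 fold change was -0.39 against siScramble (95% interval -0.65 to -0.13, adjusted p = 0.245) and -0.52 against wt (-0.76 to -0.28, adjusted p = 0.23), a 1.31-fold and a 1.43-fold lower value. Its second probe, A_44_P543258, gave fitted values of -0.38 and -0.44, with replicate 2 at 0.05 and 0.01. The adjusted p of Slc7a1 against wt was under 0.05 in 5 of 17 alternative analyses and ranged from 0.0107 to 0.516 over them. Slc7a3, the other cationic carrier, was not well above background in the siFoxE1 channel on any array, and in the reference channel on 1 of 5 siScramble and 2 of 5 wt arrays. Its ratios, between -0.36 and 0.14, are ratios of background and no fold is given.

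Slc6a9, which encodes the glycine carrier GlyT1, had the lowest fitted values of the members when the pooled arrays were used. The ratio to siScramble was -0.07, -0.04, -0.66 and -0.24 in replicates 1 to 4 and -0.64 on the pooled array, which lay at the level of replicate 3. Against wt it was -0.31, -0.26, -1.04 and -0.42, with -0.54 on the pooled array. The fitted log2 fold change was -0.44 against siScramble (95% interval -0.72 to -0.17, adjusted p = 0.224) and -0.53 against wt (-0.89 to -0.17, adjusted p = 0.233). The single cultures alone gave -0.25 and -0.51, and Slc7a1 was then lower than Slc6a9 in both comparisons, at -0.38 and -0.57. A second probe, A_64_P034551, also lay below 0 on all 10 arrays, with fitted values of -0.49 and -0.65, and its 4 cultures against wt ranged from -1.35 to -0.49. Both probes thus gave the same order of replicates 3 and 4 below replicates 1 and 2 against siScramble.

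Slc1a4 encodes the ASCT1 exchanger of serine, alanine and cysteine. It was also lowest in replicate 3 in both comparisons, with smaller fitted differences than Slc6a9. Against siScramble its ratio was -0.23, -0.08, -0.57 and -0.18 in replicates 1 to 4 and -0.13 on the pooled array, and against wt -0.41, -0.23, -0.81 and -0.40 with -0.24 on the pooled array. All 10 arrays were below 0. The fitted log2 fold change was -0.20 (95% interval -0.42 to 0.03, adjusted p = 0.434) and -0.35 (-0.62 to -0.08, adjusted p = 0.243).

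The related Slc1a5, the ASCT2 glutamine exchanger, stayed close to 0. Its ratio was 0.16, 0.03, -0.05 and 0.13 in replicates 1 to 4 against siScramble, with -0.20 on the pooled array, and -0.14, -0.08, -0.38 and -0.12 against wt, with 0.13 on the pooled array. In each comparison the pooled array had the opposite sign to most of the cultures. The fitted values were -0.07 (95% interval -0.23 to 0.10, adjusted p = 0.761) and -0.03 (-0.22 to 0.17, adjusted p = 0.893).

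Slc38a2, which encodes the SNAT2 carrier induced by amino acid shortage, was below 0 on all 5 arrays against wt but not against siScramble. The ratio to wt was -0.20, -0.31, -0.49 and -0.30 in replicates 1 to 4 and -0.16 on the pooled array, a fitted value of -0.24 (95% interval -0.43 to -0.06, adjusted p = 0.243). The ratio to siScramble was -0.36, 0.07, -0.25 and -0.23, with 0.07 on the pooled array, a fitted value of -0.06 (-0.27 to 0.15, adjusted p = 0.836). Without that pooled array it was -0.19 (adjusted p = 0.177). Slc43a1, which encodes LAT3, was near background. It was well above background in the siFoxE1 channel on 0 of 5 arrays of the siScramble comparison and 1 of 5 of the wt comparison, and in the reference channel on 3 and 4 of 5. Its ratios, between -0.13 and 0.22, are ratios near background. Its fitted values, which enter the counts and medians of the tested members, are therefore not read as a change.

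Replicate 3 gave the lowest ratio for 6 of the 8 members above background against siScramble and for 8 of 8 against wt. The median ratio of the 9 tested members was -0.12, -0.04, -0.55 and -0.23 in replicates 1 to 4 against siScramble and -0.20 on the pooled array. Against wt it was -0.31, -0.30, -0.79 and -0.31, with -0.20 on the pooled array. The spread of all genes was also widest in replicate 3, with an SD of log2 ratios of 0.32 against siScramble and 0.48 against wt, where the other single cultures had 0.18 to 0.29 and 0.19 to 0.33. The array of replicate 3 against siScramble shared a second slide with the pooled array of that comparison, while its wt array was on the first slide with the 7 others. With the slide as a term against siScramble, the fitted values of Slc3a2 (0.00), Slc7a11 (0.19) and Slc1a4 (0.06) were no longer below 0, and Slc7a1 (-0.25), Slc7a5 (-0.12) and Slc6a9 (-0.11) stayed below 0. Only replicate 3 and the pooled array were on the second slide, so beside the dye term the slide term is set by replicate 3 alone. Against siScramble the parts of the slide and of replicate 3 therefore cannot be told apart, and neither was tested.

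Levels of the members differed between cultures within every group, also among the untreated cells. In the 4 wt cultures the log2 channel intensity of Slc3a2 was 13.12, 12.14, 13.34 and 13.41, a 2.42-fold range with culture 2 lowest. Slc6a9 ranged over 2.57-fold in wt (11.33, 10.04, 11.13 and 11.40) and Slc1a4 over 1.80-fold (7.74, 6.997, 7.74 and 7.84). Culture 2 was lowest for 7 of 8 members in wt, for 7 of 8 in siScramble and for 6 of 8 in siFoxE1, and culture 4 was highest for 6, 8 and 6 of 8. Intensities are set side by side only within 1 probe.

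At its brighter probe, Slc7a11 ranged more widely in transfected cultures than in wt. Its log2 intensity was 9.61, 8.54, 9.05 and 9.44 in wt cultures 1 to 4, 9.56, 8.06, 8.76 and 9.82 in siScramble and 9.96, 8.09, 7.76 and 9.05 in siFoxE1, which are ranges of 2.09-fold, 3.41-fold and 4.60-fold. The dimmer probe, A_64_P041166, had ranges of 1.60-fold, 1.44-fold and 1.74-fold, so there siScramble was narrower than wt. Measured on both of its arrays, a siFoxE1 extract gave values of Slc7a11 that differed by at most 0.06, far less than the cultures did. Slc1a5 was the steadiest member above background, with ranges of 1.28-fold in wt, 1.11-fold in siScramble and 1.24-fold in siFoxE1. For Slc7a1 the siFoxE1 cultures 1 to 3 lay together at 10.04, 10.03 and 10.09, and culture 4 at 10.73. Whether these ranges differ between groups was not tested.

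**Figure D2:**
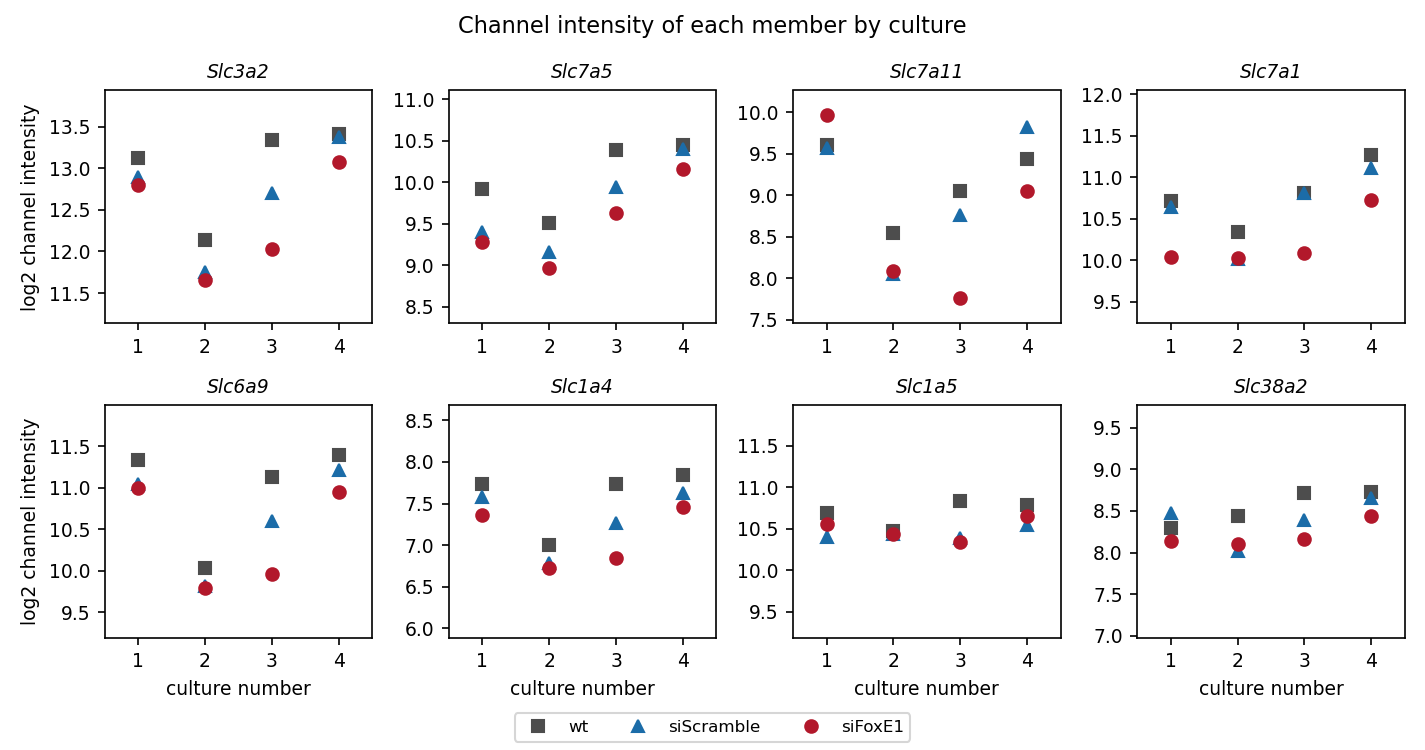
Log2 channel intensity of the 8 members above background in cultures 1 to 4 of wt (squares), siScramble (triangles) and siFoxE1 (circles, mean of 2 arrays), one panel per member and all panels spanning the same number of log2 units. Culture 2 is low and culture 4 high for most members in all 3 groups, while Slc1a5 is nearly flat. siFoxE1 was read in Cy5 and the references in Cy3, so gaps between groups include the dyes.

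Members varied together from culture to culture. After each group's mean was subtracted, Pearson's r over the 12 culture extracts was 0.99 for Slc6a9 with Slc1a4, 0.98 for Slc3a2 with Slc1a4, 0.97 for Slc3a2 with Slc6a9 and 0.90 for Slc7a1 with Slc7a5. The heavy chain Slc3a2 had r = 0.81 with its partner Slc7a5 and 0.83 with its partner Slc7a11, while both light chains had 0.38 with each other. Over the 28 pairs of members above background the median was 0.77 and all 28 were above 0. Without culture 2, the low one, the median was 0.67 and 27 of 28 pairs were above 0, the lowest at -0.16. The 12 extracts come from 4 culture numbers and share arrays and dyes, so these values describe the extracts and carry no test. The same r was not computed for pairs of other genes, so nothing here is shown to be particular to the members.

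**Figure D3:**
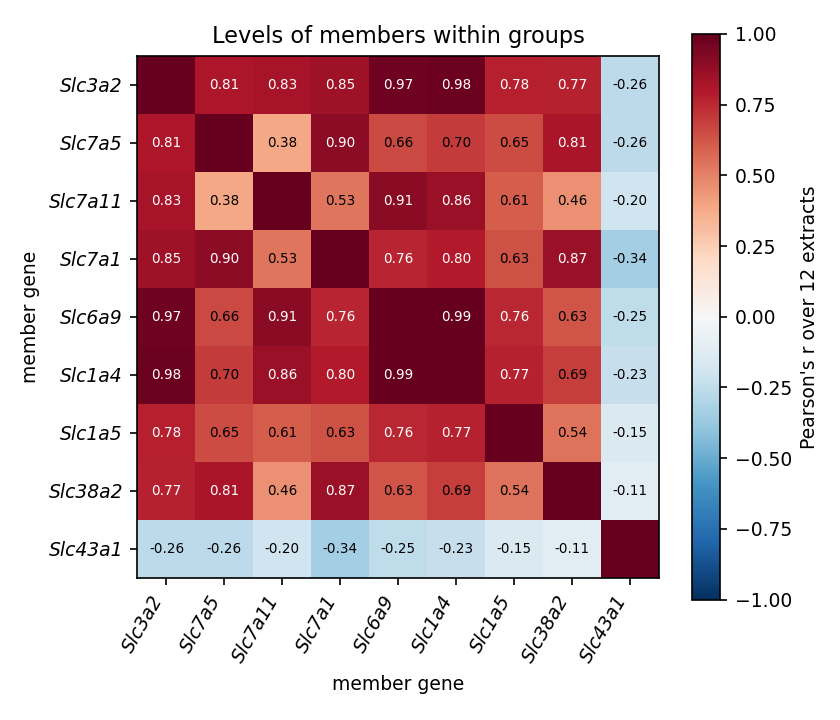
Pearson's r between the log2 levels of each pair of the 9 tested members over 12 culture extracts, after the mean of each group was subtracted. Colour runs from -1 (blue) to 1 (red). Slc3a2, Slc6a9 and Slc1a4 form the tightest group with r of 0.97 to 0.99, and Slc43a1, near background, is below 0 with every other member.

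The genes whose ratios followed Slc7a11 most closely over the 8 arrays of single cultures, of 9565 genes compared, were Riiad1 (r = 0.98), Chmp1b (0.97), Isg20 (0.97), Acot2 (0.97) and Nfat5 (0.97). Riiad1 had ratios of -0.16, -0.14, -0.76 and -0.75 against siScramble and -0.03, -0.46, -0.97 and -0.49 against wt, a smaller range than the 1.67 of Slc7a11. Nfat5, the transcription factor of the response to high osmolarity, was above 0 in replicates 1 and 2 against siScramble (0.38 and 0.20) and below 0 in replicates 3 and 4 (-0.41 and -0.25). The 8 arrays share 4 siFoxE1 extracts, and these r are the highest of all genes compared, so they are high by selection.

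siScramble and wt were compared through siFoxE1, in a fit of all 10 arrays. No member and no gene of 9577 was called (0%), with 128 genes (1.34%) lower and 199 (2.08%) higher at an unadjusted p under 0.05 and 0 members among them. Still, 8 of 9 members were lower in siScramble than in wt, with a median of -0.16 where all genes had -0.0025. Slc7a5 was at -0.20 (standard error 0.139, adjusted p = 0.988), Slc6a9 at -0.19 (standard error 0.167), Slc1a4 at -0.18 (standard error 0.121) and Slc7a1 at -0.17 (standard error 0.126). Within replicate numbers the difference for Slc1a4 was -0.18, -0.14, -0.23 and -0.22, and for Slc7a1 -0.07, -0.28, -0.23 and -0.19. All 4 numbers were below 0 for both genes, and also for Slc3a2, Slc7a5, Slc6a9 and Slc1a5. Tested over these 4 differences, in which the dye cancels and the pooled arrays take no part, those 6 of the 9 members had an unadjusted p under 0.05, where 7.32% of all genes were lower at that level. None passed after adjustment, and the lowest adjusted p was that of Slc7a5 (log2 difference -0.38, adjusted p = 0.131). Slc7a11 was at -0.07 (standard error 0.317). The block called 5 genes (0.0522%) and the difference within replicate numbers 12 (0.125%), with no member among them.

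The other amino acid transporters, a list of the plasma membrane that also holds some carriers of the lysosome, lay around 0. Of 41 listed genes 37 had a probe, and 17 and 16 were tested against siScramble and wt. In each comparison 9 were below 0, the medians were -0.03 and -0.0047, and none was called. The 3 of largest size against siScramble were the taurine carrier Slc6a6 (0.25 against siScramble and 0.14 against wt, where the mean of the cultures was 0.33), the light chain Slc7a7, which forms y+LAT1 with the Slc3a2 product (-0.23 and -0.21), and the LAT2 light chain Slc7a8 (0.11 and 0.12). Their adjusted p were 0.305 or higher against siScramble and 0.251 or higher against wt. The 2 LAT light chains that pair with 4F2hc, Slc7a5 and Slc7a8, thus lay on opposite sides of 0, a difference that was not tested.

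Genes of the amino acid response, ATF4 itself, its partners, a kinase upstream of it and its targets other than transporters, leaned the same way as the members. Of 22 tested, 19 were below 0 against siScramble and 18 against wt, with medians of -0.27 and -0.35, and none was called in either. The largest differences against siScramble were those of Ddit3, which encodes the stress factor CHOP (-0.99, adjusted p = 0.305), the stress-induced chromatin protein gene Nupr1 (-0.72, adjusted p = 0.285) and Psph, the last enzyme of serine synthesis (-0.50, adjusted p = 0.167). Against wt these were at -0.96, -1.16 and -1.01. Replicates 1 to 4 against siScramble were far apart for Ddit3 (-0.09, -0.68, -2.40 and -0.61) and Nupr1 (-0.07, -0.42, -1.58 and -0.87). Psph was at -0.52, -0.28, -0.82 and -0.49, so all 3 were lowest in replicate 3. Against wt Ddit3 was at 0.53 in replicate 1 and -2.52 in replicate 3. With the replicate block 9 of the 22 fell against wt, where 4.84% of all genes did, and 0 against siScramble. The 9 were Nupr1, Psph, Pycr1, Mthfd2, Atf4, Sesn2, Asns, Aldh18a1 and Shmt2, with log2 fold changes from -1.16 to -0.33. On the 4 single cultures alone, 5 fell against siScramble, where 1.44% of genes did. These were Eif4ebp1 (-0.58), Psph (-0.53), Atf4 (-0.50), Mthfd2 (-0.47) and Aldh18a1 (-0.41). Against wt that fit called Psph (-0.90) and Mthfd2 (-0.71), where 0.506% of genes fell. The list's median per array was -0.18, -0.27, -0.53 and -0.12 in replicates 1 to 4 against siScramble, where that of the members was -0.12, -0.04, -0.55 and -0.23. Both lists were lowest in replicate 3. This list was chosen with earlier results of these data known, so its lean is not independent evidence.

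Mitochondrial amino acid carriers lay on both sides of 0, and 0 of 7 tested were called in either comparison. The glutamate carrier Slc25a22 was at 0.53 and 0.65 against siScramble and wt (1.07 against wt as the mean of the cultures), the serine carrier Sfxn1 at -0.42 and -0.75 and the glycine carrier Slc25a38 at -0.34 and -0.49. With the block, Sfxn1 (-0.73) and Slc25a38 (-0.50) fell and Slc25a29 (0.34), a carrier of basic amino acids, rose against wt. In that fit 4.84% of all genes fell and 5.74% rose. On the 4 single cultures alone, Slc25a22 (0.79) and Sfxn3 (0.54) rose against siScramble, where 2.13% of genes did. In that fit Sfxn2 (-0.38) fell against wt, where 0.506% of genes did.

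Of genes through which mTORC1 senses amino acids, 0 of 24 tested were called, with medians of 0.03 and -0.02. The leucine sensor gene Sesn2, itself an ATF4 target, was at -0.34 (-0.20 as the mean of the cultures) and -0.49, and the Ragulator subunit genes Lamtor3 and Lamtor4 were at -0.24 (-0.38 as the mean of the cultures) and -0.42 and at 0.33 and 0.36. With the block Sesn2 (-0.54), Lamtor3 (-0.40) and Sec13 (-0.32) fell and Lamtor4 (0.36) rose against wt. In that fit 4.84% of all genes fell and 5.74% rose. On the 4 single cultures alone, Lamtor3 (-0.38) fell against siScramble, where 1.44% of genes did.

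For the pathway that uses the cystine brought in by xCT, glutathione synthesis and turnover, 0 of 14 tested genes were called, with medians of -0.05 and 0.05. Ggct, which degrades gamma-glutamyl products of glutathione, was at -0.83 and -1.24, Cth, which makes cysteine from cystathionine, at -0.41 and -0.62, and Ggt1, which cleaves glutathione outside the cell, at 0.34 and 0.41. In replicates 1 to 4 Ggct was at -0.06, 0.00, -1.73 and -1.42 against siScramble and at -0.44, 0.11, -2.76 and -1.66 against wt. With the block Cth (-0.65) fell and Ggt1 (0.40) rose against wt, where 4.84% of all genes fell and 5.74% rose. Gclc, the catalytic subunit of the first enzyme of glutathione synthesis, was at -0.14 and -0.08 (-0.14 against wt as the mean of the cultures), adjusted p = 0.569 and 0.769.

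**Figure D4:**
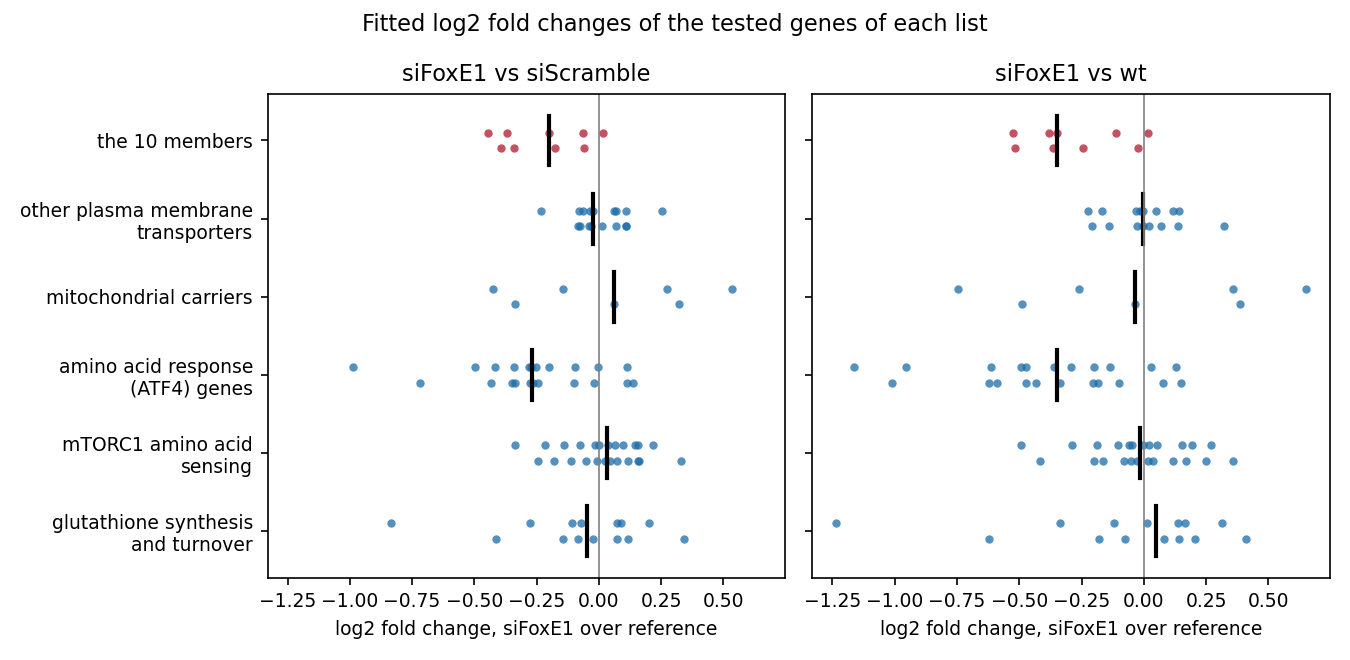
Fitted log2 fold change of every tested gene of 6 lists against siScramble (left) and wt (right), each point a gene at its brightest probe and each black bar the median of its list. The members (red) and the amino acid response genes lie mostly below 0, with medians of -0.20 and -0.27 against siScramble, while the other transporters are centred near 0. The label of that list names the plasma membrane, though some of its genes act in the lysosome.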

How the data were processed

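In all, 10 arrays of PCCl3 RNA were analysed. The spot intensities in the deposited files are median pixel values per dye, made by the authors with Feature Extraction 10.7.3.1, beside processed signals and a log10 ratio of red over green that the authors' software computed. A deposited table holds log2 ratios that the authors normalized (loess, then quantiles), with limma 3.2.3 named in the submitters' processing notes. The pooled columns of that table are already siFoxE1 over reference, with r = -0.705 and -0.658 to red over green.

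Here median signals were corrected by normexp (offset 50), normalized by loess and quantiles and averaged over spots of a probe, without outlier spots. R 4.3.3 ran limma 3.58.1 for this. The 5 arrays of a comparison entered 1 fit with a dye term (3 residual degrees of freedom), followed by eBayes and Benjamini-Hochberg adjustment over the tested probes. Testing required a signal well above background on at least 3 of 5 arrays in either channel, and the brightest such probe stood for its gene. Rose and fell are used only below an adjusted p of 0.05. siScramble and wt were compared in a fit of all 10 arrays with a shared dye term. RefSeq accessions named 17998 of 30367 probes, both Slc7a1 probes, whose accession is retired, were named from the study's own array annotation, and 12367 stayed unnamed. Plots were drawn with matplotlib 3.10.9 in Python 3.11.15, and tables were made with numpy 2.4.6 and pandas 2.3.3.

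The members and gene lists were chosen with earlier results of these data known. Named genes were all members, Foxe1, of each list the genes called or else the 3 of largest size against siScramble, and the 5 genes most like the member of widest range. Gclc, Slc36a1 and the list genes called only under the block or another setting were named after their values were seen. Of the listed marker genes, 1 is not reported here. The study's design drawing shows one siFoxE1 extract on both arrays of a replicate number, and deviations of same-numbered arrays correlated at r = 0.62, 0.76, 0.76 and 0.41 across probes (other numbers -0.65 to 0.51), so numbers pair the samples. The block fit used duplicateCorrelation, with a within-number correlation of 0.54 against siScramble and 0.53 against wt. In it the pooled arrays were a block of their own. Independent silencing experiments gave the 4 cultures, as the study states. Array number limits the precision. Alternatives covered signals, normalization, dye term, pooled arrays, filter, eBayes, block, slide, probes and each replicate left out. Fits without one replicate kept the pooled arrays, which hold its RNA.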

Additional observations from a re-analysis of the deposited data

Results flagged for a closer look

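Of 60 groups of 4 values of member probes, 6 had a highest or lowest value whose gap to the next took up more than 0.829 of the group's range, where chance gives about 1 in 20. Slc3a2 against wt had its lowest ratio, -1.13, in replicate 3, with a gap of 0.86 of the range. The second probe of Slc7a1 had its highest ratio against siScramble, 0.0549, in replicate 2 (gap 0.88). Slc7a1 at its brightest probe had its highest siFoxE1 level, 10.73, in culture 4 (gap 0.91), with the other cultures within 0.06 of each other. Slc1a4 had its lowest wt level, 6.997, in culture 2 (gap 0.88). Slc43a1, near background, had a ratio of 0.22 against siScramble in replicate 3 (gap 0.86) and a siScramble level of 6.15 in culture 3 (gap 0.92), which are the same array. No member differed between both comparisons by the test of that difference, the siScramble vs wt contrast, at any of 12 probes.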

How the results depend on the processing

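The counts of called genes depended on the model. Against siScramble, where the reported count is 15, limma called 347 genes on the 4 individual arrays alone, 521 with no dye term, 66 on all 10 arrays without a block, 8 with no filter on dim probes, 1 with the slide as a term, 0 with Feature Extraction processed signals and from 5 to 25 without one replicate. Against wt, where it is 3, the same settings gave 147, 597, 1145, 3, no slide value, 0 and from 0 (without replicate 1 or 4) to 45 (without replicate 3), and 5 with no quantile step. Between siScramble and wt, where it is 0, 12 genes were called within replicate numbers.

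Of the members, none was called against siScramble except Slc7a1 with no dye term (1 member, log2 fold change -0.39, adjusted p = 0.0421). Against wt 2 were called on the individual arrays (Slc7a1 -0.57, Slc7a5 -0.57), 3 on all 10 arrays without the block (Slc7a1, Slc6a9, Slc1a4) and 4 with no dye term (those 3 and Slc38a2 at -0.29). Leaving out the single-culture arrays of any 1 replicate gave 0 members in every comparison. The pooled arrays, which hold RNA of that culture too, were kept. Of the other listed transporters 1, Slc36a1, was called against wt on all 10 arrays without the block.

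On all 10 arrays with the replicate block for the pairing, 45 genes were called against siScramble, 1045 against wt and 5 between siScramble and wt, with 0, 3 and 0 members. With a dye term for each comparison, chosen after the data were seen, the block gave 26, 436 and 1 genes, with 0, 2 and 0 members, and Slc7a5 (0.0666), Slc1a5 (0.0398) and Slc43a1 (-0.0004) changed sign between siScramble and wt. Beside the fit of all 10 arrays without it, the block changed no call of a member.

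Signs turned mostly for members near 0, with no test passed. Against siScramble the slide term, which cannot be told apart from replicate 3, turned Slc3a2 (0.0019), Slc7a11 (0.191), Slc1a4 (0.0582), Slc1a5 (0.0317) and Slc43a1 (-0.191). Slc1a5 was also at 0.0683 on the individual arrays, 0.0212 on all 10 arrays with or without the block and 0.015 with no dye term. Slc43a1 was at -0.0298 on the individual arrays, -0.135 with processed signals, -0.0115 with no dye term and -0.0255 to 0.0331 without one replicate. Against wt Slc43a1 was at -0.0076 on the individual arrays and -0.145 with processed signals, and Slc1a5 ran from -0.0412 to 0.0081 without one replicate. Between siScramble and wt, without one replicate, Slc7a11 ran from -0.178 to 0.0349 and Slc43a1 from -0.0186 to 0.0616. The cause was not tested. Of 150, 141 and 141 alternative values of members in the 3 comparisons, 136, 124 and 135 kept direction and side of the threshold. The median r between members was 0.65 to 0.94 without one culture number. Dim probes (Slc7a3, Slc43a1 and the second Slc7a11 probe) are limited by background, and 5 arrays per comparison limit the rest.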
